A study of Mus musculus with 12 samples.

Results

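The genes described here are Rad18, Polh, Poli, Polk, Rev1, Rev3l and Mad2l2, the mouse genes of translesion DNA synthesis and of the ligase that switches it on. Their rows were taken from the deposited expression table by gene symbol, and all 7 were found among 24091 genes. RNA was sequenced from 12 mouse samples in 4 groups of 3. The tumors were medulloblastomas of Brca2-mut;Trp53-mut mice GB344, GB359 and GB370, in which Cre under the hGFAP promoter deletes Brca2 exons 3 and 4 in the developing central nervous system and Trp53 is knocked out in every tissue. The adjacent cerebella came from the same 3 mice and so carried both mutations. The control cerebella came from age-matched mice without medulloblastoma. Of these, 3 were Brca2-mut;Trp53-WT (GB361, GB508 and GB512), called Brca2-mut controls below, and 3 were Brca2-WT;Trp53-mut (GB517, GB519 and GB520), called Trp53-mut controls. Each of the 12 samples thus carried at least 1 of the 2 mutations, and no cerebellum with both genes wild-type was analysed here. The sources used here do not state the sex of the animals, or whether the Trp53-mut controls carried Cre.

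Replicative polymerases stop at damaged bases. RAD18, an E3 ubiquitin ligase, acts with the RAD6 conjugating enzymes (encoded by Ube2a and Ube2b) to attach ubiquitin to the sliding clamp PCNA at such stalled forks, and the modified clamp recruits polymerases that can copy across the lesion. The Y-family enzymes Pol η (Polh), Pol ι (Poli), Pol κ (Polk) and REV1 insert bases opposite lesions. Pol ζ, made of the catalytic subunit REV3L, REV7 (encoded by Mad2l2) and 2 subunits shared with the replicative Pol δ (encoded by Pold2 and Pold3), extends from the inserted base. Granule cell progenitors, the dividing cells of the young cerebellum from which this type of medulloblastoma arises, replicate their DNA rapidly, while the adult cerebellum consists mostly of neurons that no longer divide.

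Values are TPM, a measure of transcript abundance scaled for transcript length and library total, and can therefore be set side by side between genes. TPM carries no read counts, so the depth behind a value is unknown and the error given is the spread between mice. Fold changes are on the log2(TPM + 1) scale and come from limma fits across all genes that reached 1 TPM in 3 or more samples of the comparison. A gene was called higher or lower when its Benjamini-Hochberg adjusted p over all genes tested was under 0.01 and its absolute log2 fold change was at least 1, which are the thresholds of the study. A wider rule, an adjusted p under 0.05 with no minimum fold change, is named where it is used.

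The sequences shown first are the stretches between a start site of Mad2l2, Polk and Polh and that of the nearest neighbour, because each of these genes has a start that lies head-to-head with one of a gene on the opposite strand and the pair is described together further on. They are RefSeq sequences on GRCm38.p6 (mm10), each printed 5′ to 3′ on the strand of the translesion gene, and the capitals mark a GC box (GGGCGG, read on either strand).
Mad2l2, chr4:148130699-148130919, plus strand, 221 bases between a start of Draxin and one of Mad2l2: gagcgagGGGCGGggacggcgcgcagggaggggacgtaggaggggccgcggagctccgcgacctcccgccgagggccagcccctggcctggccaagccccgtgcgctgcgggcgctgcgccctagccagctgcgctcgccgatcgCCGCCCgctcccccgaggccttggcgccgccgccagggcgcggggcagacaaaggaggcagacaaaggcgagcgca
Polk, chr13:96542580-96542734, minus strand, 155 bases between the starts of Col4a3bp and Polk: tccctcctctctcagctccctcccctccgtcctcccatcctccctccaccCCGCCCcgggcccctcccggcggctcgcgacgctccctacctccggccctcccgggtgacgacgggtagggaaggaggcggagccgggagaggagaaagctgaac
Polh, chr17:46202642-46202810, minus strand, 169 bases between the starts of Xpo5 and Polh: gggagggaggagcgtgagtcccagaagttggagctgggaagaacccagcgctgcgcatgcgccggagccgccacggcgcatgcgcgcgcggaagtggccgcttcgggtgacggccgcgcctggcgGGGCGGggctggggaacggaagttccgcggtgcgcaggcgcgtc
The share of G and C was 78.7% in the Mad2l2 stretch, 72.9% in the Polk stretch and 74.6% in the Polh stretch, where the median over the 250 bases upstream of all RefSeq start sites was 52.4%. By GENCODE annotation, 5, 27 and 33 bases of these stretches, in the same order, lie in an exon of any annotated gene, and the rest is outside exons. Other transcripts of these genes start elsewhere. The RefSeq span of Mad2l2 begins at 148130158, before the Draxin start used here, and that of Draxin runs to 148131139, so the stretch printed for this pair lies within the span of both genes. The span of Col4a3bp begins at 96542709, inside the Polk stretch. The windows from 250 bases before to 50 bases after the start were searched for 5 motifs on both strands, none of which contains another. The windows of 5 of the 7 genes were used, Rad18, Rev1, Mad2l2, Polk and Polh, at the most upstream start that had a window for each. For Mad2l2 this start lies downstream of the beginning of its RefSeq span, which was not searched. Rev3l had no window, and Poli was left out of the search. The GC box stood in 4 of these 5 windows, those of Mad2l2, Polk, Polh and Rev1, and in 35.7% of 32851 windows of the same length. The letters TTTCCCGC and TTTGGCGC (forms of the E2F motif), TTTGAA (the cell cycle homology region) and CCAAT were in 0 of the 5 windows and in 1.07%, 0.514%, 17.9% and 37.4% of all windows.

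In the tumors, 4 of the 7 genes were called higher than in the 6 control cerebella (Mad2l2, Rad18, Polh and Poli), 1 was called lower (Polk), and Rev1 and Rev3l met neither limit. In this comparison 14.4% of the 16241 genes tested were called on the higher side and 21.5% on the lower side. Over the 7 genes the median log2 fold change was 1.01, and over all genes tested it was -0.11. Fewer cells of a type and less RNA per cell cannot be told apart in these bulk samples, and this holds for each difference below.

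**Figure D1:**
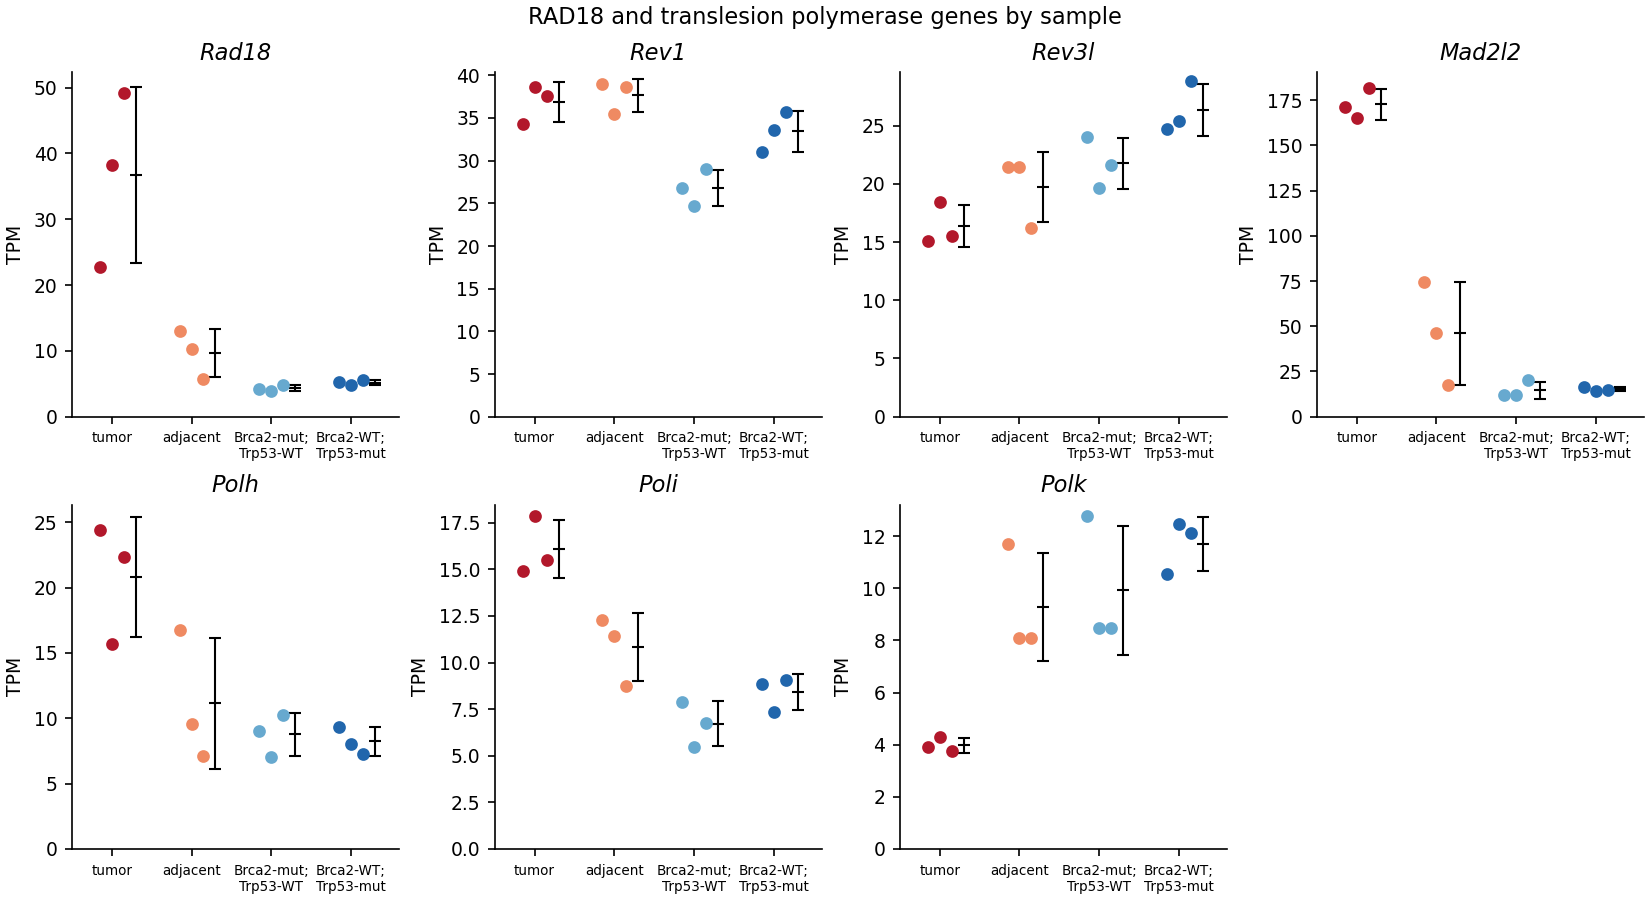
TPM of the 7 genes in each of the 12 samples (points, in the order of mouse number within a group), with the mean and SD of each group of 3 beside them. Mad2l2 in the tumors, at 165 to 182 TPM, stood far above every other sample, and Polk in the tumors, at 3.75 to 4.28 TPM, stood below every other sample.

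RAD18, the ligase that marks PCNA, was encoded by the least abundant of the 7 transcripts in the control cerebella. Rad18 (Entrez Gene 58186) lies on mm10 chromosome 6, between positions 112619851 and 112696691. Its level was 22.7, 38.2 and 49.2 TPM in the tumors of GB344, GB359 and GB370. The adjacent cerebella of the same mice had 13.0, 10.3 and 5.77 TPM. The 6 controls ran from 3.96 to 5.53 TPM with a median of 4.80. All tumors were above all other samples, and the tumor with the least Rad18 came from the mouse whose adjacent cerebellum had the most. Rad18 averaged 36.7 ± 13.3 TPM (SD, n = 3) in the tumors, which is 7.72 times the control mean of 4.76 ± 0.602 (SD, n = 6). On the log2 scale this was a rise of 2.65 (95% confidence interval 2.19 to 3.12, limma adjusted p = 1.12e-06).

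Mad2l2 carried the largest difference of the group. It encodes REV7, a small adaptor protein that joins REV3L to REV1 and also works in the shieldin complex at DNA double-strand breaks. Mad2l2 (Entrez Gene 71890) lies on chromosome 4, between positions 148130158 and 148145704. Its level was 171, 165 and 182 TPM in the tumors of GB344, GB359 and GB370. The adjacent cerebella had 74.5, 46.5 and 17.6 TPM. The controls ran from 11.7 to 20.2 TPM with a median of 14.5. The 3 tumors were nearly level, while the adjacent samples spread from the control range to several times above it. The tumor mean of 173 ± 8.50 TPM (SD, n = 3) was 11.6 times the control mean of 14.9 ± 3.07 (SD, n = 6), a log2 fold change of 3.47 (95% confidence interval 3.14 to 3.80, limma adjusted p = 2.72e-08). Among all genes tested, this value stood at percentile 98.6, and that of Rad18 at percentile 97.2.

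The catalytic partner of REV7 did not rise with it. Rev3l (Entrez Gene 19714) lies on chromosome 10, between positions 39731561 and 39875211. Its level was 15.1, 18.4 and 15.5 TPM in the tumors and 21.4, 21.4 and 16.2 TPM in the adjacent cerebella, in the same order of mice. The controls ran from 19.7 to 28.9 TPM with a median of 24.4. Every tumor was below every control, although the highest tumor and the lowest control were close. The log2 fold change was -0.52 (95% confidence interval -0.80 to -0.24, limma adjusted p = 0.00345), so Rev3l passed the rule with an adjusted p under 0.05 but not the fold limit. By that wider rule, 31.8% of all genes were higher in tumors and 39.5% were lower. Groups without overlap were found for 28.3% of genes on the higher side and 35.7% on the lower side, and for 4 and 2 of the 7 genes here. The ratio of Mad2l2 to Rev3l TPM was 11.3, 8.95 and 11.7 in the tumors, 3.48, 2.17 and 1.08 in the adjacent cerebella, and between 0.508 and 0.933 in the controls. Rev3l was thus the more abundant transcript of the pair in every control and Mad2l2 in every sample from a tumor-bearing mouse.

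Rev1 encodes a deoxycytidyl transferase that also serves as the platform on which the other polymerases dock. Rev1 (Entrez Gene 56210) lies on chromosome 1, between positions 38052786 and 38129921. Its level was 34.2, 38.7 and 37.6 TPM in the tumors and 39.0, 35.4 and 38.6 TPM in the adjacent cerebella. The controls ran from 24.7 to 35.7 TPM with a median of 29.98. The tumors overlapped the controls, and the log2 fold change of 0.29 (95% confidence interval 0.02 to 0.56) had a limma adjusted p of 0.0501. It passed 0.05 with median-of-ratios scaling (0.40, adjusted p = 0.00201) and with quantile normalization (0.43, adjusted p = 0.00187). At 0.29, it also passed with all 4 groups in one fit (adjusted p = 0.00832) and with a minimum of 5 TPM (adjusted p = 0.0462). It did not pass with a pseudocount of 0.1, with no filter on low values or without the trend (adjusted p = 0.0506, 0.0579 and 0.058). Against the Trp53-mut controls alone the difference was 0.14 (adjusted p = 0.290), and against the Brca2-mut controls alone it was 0.45 (adjusted p = 0.0142). With 1 sample left out, the adjusted p ran from 0.0239 to 0.135, and it was under 0.05 without the tumor of GB344 or without the control GB519 or GB520. In GENCODE, 1643 of the 6168 exonic bases of Rev1 overlap exons of Eif5b on the opposite strand. Whether strand was used in the quantification is not given in the sources used here, so the level of Rev1 is uncertain. Eif5b, a translation initiation factor gene, was higher by 0.36 in the same fit (adjusted p = 0.00242).

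Of the inserting polymerases, Pol η copies accurately across ultraviolet-induced thymine dimers. Polh (Entrez Gene 80905) lies on chromosome 17, between positions 46171355 and 46202641. Its level was 24.4, 15.7 and 22.4 TPM in the tumors. The adjacent cerebella had 16.8, 9.52 and 7.15 TPM, and the controls ran from 7.0 to 10.3 TPM with a median of 8.54. The tumors were all above the controls, but the adjacent sample of GB344 exceeded the tumor of GB359. The tumor mean was 2.45 times the control mean, with a log2 fold change of 1.19 (95% confidence interval 0.82 to 1.55, limma adjusted p = 7.93e-05).

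Pol ι is a low-fidelity polymerase and the closest paralog of Pol η. Poli (Entrez Gene 26447, chromosome 18) had 14.9, 17.9 and 15.5 TPM in the tumors and 12.3, 11.4 and 8.77 TPM in the adjacent cerebella. The controls ran from 5.48 to 9.08 TPM with a median of 7.61. The tumors stood above all other samples. The log2 fold change was 1.01 (95% confidence interval 0.67 to 1.35, limma adjusted p = 0.000150), which lies just inside the fold limit. It fell outside that limit against the Trp53-mut controls alone (0.86), without the tumor of GB359 (0.94), without the control GB508 (0.93) and without the control GB512 (0.98), each time with an adjusted p under 0.01.

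Polk moved the other way. Pol κ copies across bulky adducts on guanine and fills gaps in nucleotide excision repair. Polk (Entrez Gene 27015) lies on chromosome 13, between positions 96480687 and 96542579. Its level was 3.90, 4.28 and 3.75 TPM in the tumors and 11.7, 8.09 and 8.10 TPM in the adjacent cerebella. The controls ran from 8.50 to 12.8 TPM with a median of 11.3. All 3 tumors were below all 9 cerebella, with no value in between. The control mean of 10.8 ± 1.96 TPM (SD, n = 6) was 2.72 times the tumor mean of 3.98 ± 0.275 (SD, n = 3), and the log2 fold change was -1.23 (95% confidence interval -1.58 to -0.89, limma adjusted p = 3.99e-05).

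**Figure D2:**
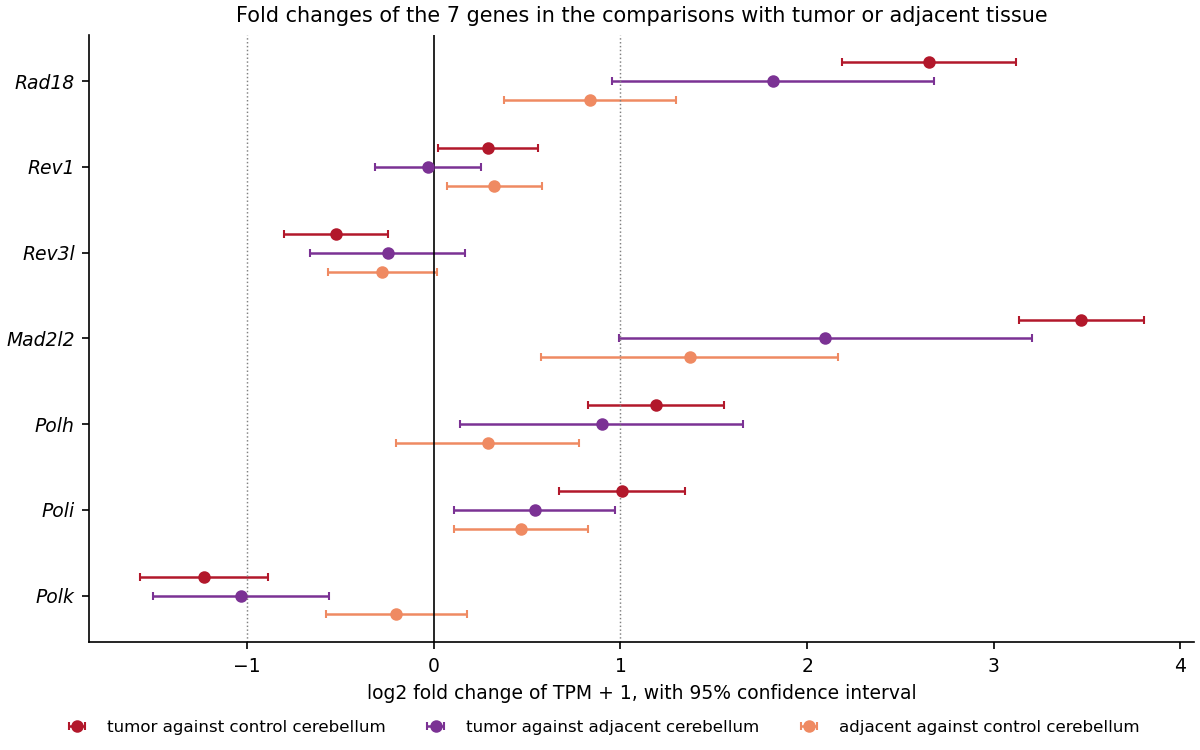
Log2 fold changes of TPM + 1 with 95% confidence intervals (limma) for the 7 genes in 3 comparisons, with dotted lines at the fold limits of -1 and 1. Mad2l2 and Rad18 lie highest in each comparison, and Polk lies below -1 against both kinds of cerebellum but near 0 between adjacent and control cerebellum.

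Within the Y family the changes partly offset each other. The summed TPM of Polh, Poli, Polk and Rev1 came to 57.0 ± 6.56 in controls (SD, n = 6). It was 68.9 ± 9.38 beside the tumors (SD, n = 3) and 77.7 ± 1.39 within them (SD, n = 3). Polk made up 18.9% ± 2.39 (SD, n = 6) of this sum in controls, 13.4% ± 1.13 (SD, n = 3) in adjacent cerebella and 5.12% ± 0.440 (SD, n = 3) in tumors. Each tumor had a smaller Polk share than each cerebellum, adjacent or control. Polh rose in share from 15.04% ± 2.59 (SD, n = 6) in controls to 26.7% ± 5.67 (SD, n = 3) in tumors, and Poli from 13.2% ± 1.24 to 20.7% ± 2.28. Rev1 was the most abundant of the 4 in all 12 samples, with 44.2% to 50.6% of the sum in tumors and 47.4% to 55.7% in controls. These shares restate the 4 TPM values and were not tested.

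**Figure D3:**
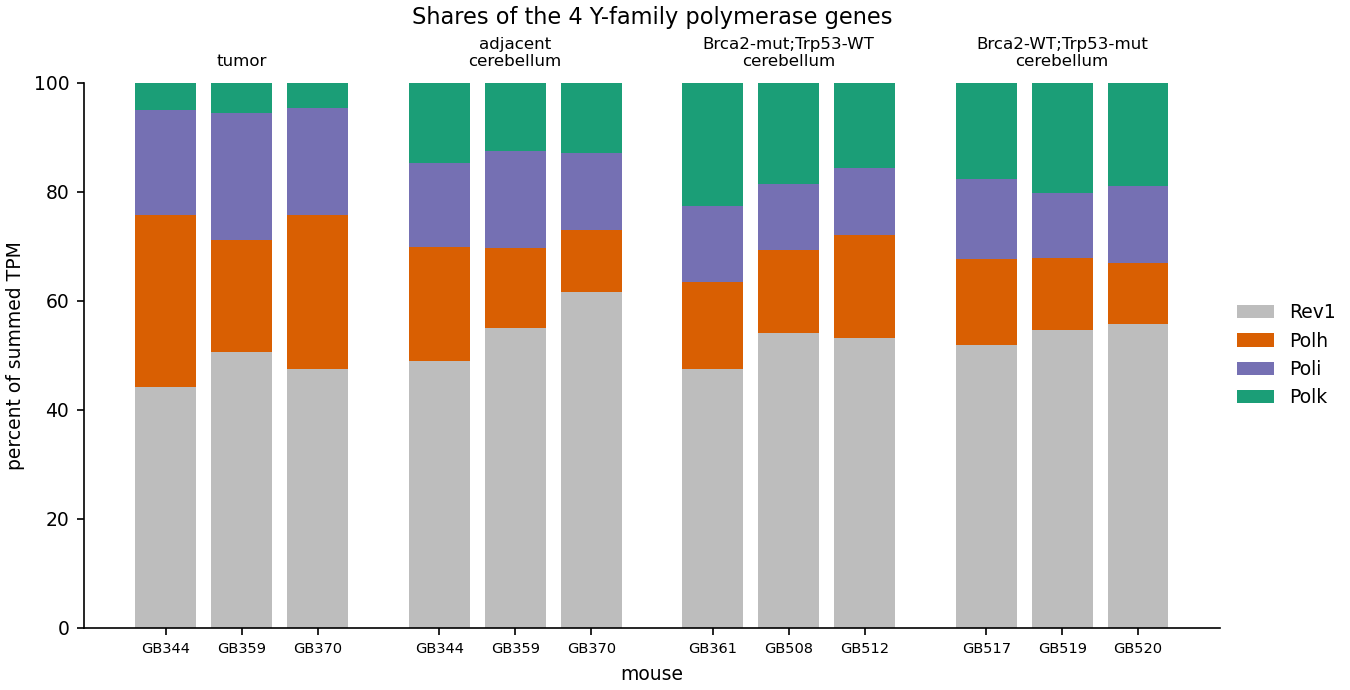
Percent of the summed TPM of the 4 Y-family polymerase genes taken by each gene, 1 bar per sample, grouped by tissue and genotype. Polk takes 4.73% to 5.60% in the tumors and 12.5% or more in every cerebellum.

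The order of the 7 transcripts differed between tissues. In controls, Rev1 was the most abundant by its mean, followed by Rev3l, Mad2l2, Polk, Polh, Poli and Rad18. The ranges of every pair of neighbours in this order overlapped, by a single pair of values for Rev3l with Mad2l2 and for Poli with Rad18. In tumors, the order was Mad2l2, Rev1, Rad18, Polh, Rev3l, Poli and Polk. Mad2l2 stood clear of all others and Polk below all others, while the ranges of all neighbours from Rev1 to Poli overlapped.

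Adjacent cerebellum of the same mice offers a comparison in which the inherited genotype is shared, but not mutations acquired in the tumor. Against it, Mad2l2 and Rad18 were called higher in the tumors and Polk lower, that is 3 of the 7 genes, where calls fell on the higher side for 4.76% and on the lower side for 18.0% of 15845 genes. The log2 fold changes were 2.10 for Mad2l2 (95% confidence interval 0.99 to 3.20, limma adjusted p = 0.00988), 1.82 for Rad18 (0.95 to 2.68, adjusted p = 0.00663) and -1.03 for Polk (-1.50 to -0.56, adjusted p = 0.00572). Poli, at 0.54 (adjusted p = 0.0441), passed only the wider rule, by which 18.1% of genes were higher. Polh, at 0.90, had an adjusted p of 0.0522. Rev3l, at -0.25 (adjusted p = 0.274), and Rev1, at -0.03 (adjusted p = 0.844), passed neither rule. Their signs changed with the scaling, as Rev3l turned to 0.035 under quantile normalization and Rev1 to 0.18 and 0.20 under median-of-ratios scaling and quantile normalization. Groups without overlap were found for Mad2l2, Rad18 and Poli on the higher side, where 23.7% of all genes had them, and for Polk on the lower side, where 38.9% had them.

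All 3 calls against adjacent cerebellum were close to the limit. With the mouse as a block in this paired design, the limma adjusted p was 0.0123 for Mad2l2, 0.0188 for Rad18 and 0.0113 for Polk, so 0 of the 7 genes were called. Over all genes, 701 were called higher and 2841 lower with the block, where the main fit without it had 755 and 2852. By the same fit Polh passed the wider rule (adjusted p = 0.0320) and Poli no longer did (adjusted p = 0.0525). When 1 of the 6 samples was left out, between 0 and 2 of the 7 genes were called. None of the 7 genes was called without the tumor of GB359, without that of GB370 or without the adjacent cerebellum of GB359. Calls over all genes fell in these fits too, to 275, 189 and 210 on the higher side and 2674, 2330 and 2167 on the lower side. Within mice, 6 of the 7 genes differed in 1 direction in all 3 mice. Of all genes tested, 30.2% were higher in the tumor in all 3 mice and 44.6% were lower in all 3. Mad2l2 was higher in the tumor than in the adjacent cerebellum by 1.19, 1.80 and 3.30 on the log2 scale in GB344, GB359 and GB370, and Rad18 by 0.76, 1.80 and 2.89. Polk was lower in each mouse, with differences of -1.37, -0.78 and -0.94. Polh was higher in the tumor by 0.52, 0.66 and 1.52 and Poli by 0.26, 0.60 and 0.76, while Rev3l was lower in each mouse, with differences of -0.48, -0.21 and -0.06. Rev1 differed in sign between mice, at -0.18, 0.12 and -0.04. The fold of Polk was -0.85 with median-of-ratios scaling and -0.63 with quantile normalization, outside the fold limit.

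Adjacent cerebellum lay between tumor and control for some of these genes. Against the 6 controls, 0 of the 7 genes were called, as were few genes at all (0.224% of 16091 genes higher and 0.0124% lower), and 4 of the 7 had an unadjusted p under 0.05, as had 34.5% of all genes tested. By the wider rule, Mad2l2 was higher by 1.37 (95% confidence interval 0.58 to 2.17, limma adjusted p = 0.0328) and Rad18 by 0.84 (0.38 to 1.30, adjusted p = 0.0284), where 10.1% of genes were higher. The adjacent values of Rad18 were all above the controls, as were those of 11.7% of genes. For Mad2l2, the adjacent sample of GB370 lay inside the control range. Without that sample, both genes were called, with log2 fold changes of 1.93 for Mad2l2 (adjusted p = 0.000482) and 1.14 for Rad18 (adjusted p = 0.000962). The shares of all genes given above are from the fit with every sample and do not apply to these calls. Without the adjacent sample of GB344, neither passed the wider rule, at 0.92 (adjusted p = 0.125) and 0.61 (adjusted p = 0.113), and without that of GB359 neither passed it, at adjusted p = 0.105 and 0.0946. Against a single control genotype the adjusted p of both also exceeded 0.05, between 0.0836 and 0.154. With 1 control left out, the adjusted p ran from 0.0397 to 0.0629 for Mad2l2 and from 0.0402 to 0.0565 for Rad18, and exceeded 0.05 for both without GB361 or GB508 and for Mad2l2 without GB519 or GB520. Poli, Rev1, Polh, Polk and Rev3l had differences of 0.47, 0.32, 0.29, -0.20 and -0.28, none past either rule. The difference of Polh was -0.025 without the adjacent sample of GB344. Tumor against adjacent and adjacent against control share the adjacent samples, and both comparisons with controls share the controls, so the values are given side by side only.

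The cycling state of the tissue moved with several of these genes. The summed TPM of 12 cycling markers was 1228, 1354 and 1429 in the tumors of GB344, GB359 and GB370, and 554, 355 and 62.2 in their adjacent cerebella. The controls were between 24.1 and 30.8 TPM, except for the Brca2-mut control GB512 with 94.5 TPM. The adjacent samples had the same order, GB344 above GB359 above GB370, in the cycling sum and in Mad2l2, Rad18, Polh and Poli. In the tumors, Rad18 followed the order of the cycling sum, and Mad2l2, Polh and Poli did not. The control GB512 was also the highest of the controls in Mad2l2 (20.2 TPM) and Polh (10.3 TPM), but not in Rad18 (4.85 TPM) or Poli (6.78 TPM). Without GB512, 4 of the 7 genes were still called in tumors against controls, the exception being Poli, as given above. All 12 cycling markers were called higher in tumors against controls, with a median log2 fold change of 5.17. Against adjacent cerebellum 11 of 12 passed the wider rule, as did 11 of 12 in adjacent against control cerebellum, with 0 called in either. The part of cycling cells in the changes of Mad2l2, Rad18, Polh and Poli was not tested.

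**Figure D4:**
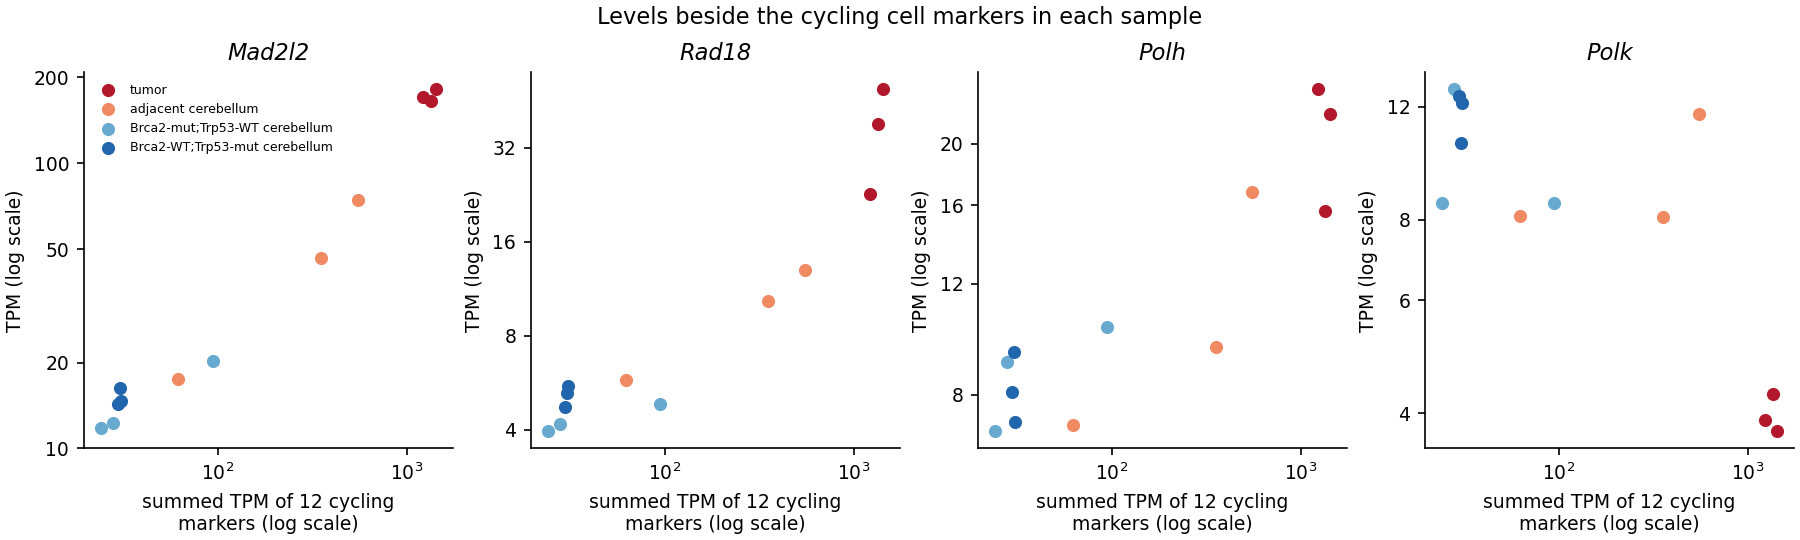
TPM of Mad2l2, Rad18, Polh and Polk against the summed TPM of 12 cycling cell markers, both on log scales, 1 point per sample. Mad2l2 climbs from controls through the adjacent samples (17.6 to 74.5 TPM) to the tumors, whereas Polk stays at 8.09 TPM or more in all cerebella and is low in tumors only.

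Other cell types also differed between the tissues. Granule cell progenitor markers summed to 2249 to 2594 TPM in tumors, 695 to 1203 in adjacent cerebella and 513 to 702 in controls, with 5 of 6 called higher in tumors against controls. The markers of mature granule neurons were all called lower (6 of 6), from 2022 to 2578 TPM in controls to 91.0 to 174 in tumors. The same held for Purkinje cells (6 of 6, from 4417 to 7425 TPM down to 51.1 to 275) and oligodendrocytes (6 of 6, from 3455 to 5319 TPM down to 95.7 to 318). Of 6 astrocyte and Bergmann glia markers 5 were called lower, from 1518 to 1896 TPM down to 271 to 489. Microglia markers (77.2 to 150 TPM in controls, 188 to 276 in tumors) had 2 of 6 called higher, and endothelial markers (117 to 135 TPM in controls, 89.2 to 140 in tumors) had 2 of 6 called lower. Choroid plexus markers had 1 of 6 called lower. The same neuronal and oligodendrocyte lists were called lower against adjacent cerebellum, 6 of 6 each, with Polk. In adjacent against control cerebellum, the 6 granule cell progenitor markers had a median log2 fold change of 2.64. Of these, 1 was called higher, Atoh1 (4.62, limma adjusted p = 0.00883). By the wider rule 5 were higher, Zic1 being the exception at 0.11. No marker on any list was at 0 TPM in every sample of a group. Whether the lower Polk and Rev3l follow from fewer neurons or glia was not tested.

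At the target loci and over the libraries as a whole, the table offered limited checks. Brca2 had 8.22 to 14.6 TPM in tumors, 4.52 to 6.98 in adjacent cerebella and 3.239 to 4.399 in controls. Trp53 had 124 to 130 TPM in tumors, 66.1 to 85.0 in adjacent cerebella, 47.1 to 49.4 in Trp53-mut controls and 33.1 to 37.2 in Brca2-mut controls. Gene-level TPM covers the exons that remain after either deletion, so these values check no genotype. Choroid plexus markers summed to 3969 to 5191 TPM in the Trp53-mut controls and to 878 TPM in GB361, against 19.5 to 66.2 TPM in all other samples. The short gene Mir6236 took 4.25% to 11.5% of the TPM of a sample.

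Between the 2 control genotypes, 0 of the 7 genes passed either rule. Of 15575 genes, 0.0128% were called higher and 0.0449% lower in Brca2-mut controls, and 0.417% were lower by the wider rule. Rev1 was 26.7, 24.7 and 29.0 TPM in GB361, GB508 and GB512 against 31.0, 33.6 and 35.7 TPM in GB517, GB519 and GB520. Rev3l was 24.04, 19.7 and 21.6 TPM against 24.7, 25.4 and 28.9 TPM. Both genes were lower in every Brca2-mut control without overlap, as were 20.3% of all genes. The differences were -0.31 for Rev1 (95% confidence interval -0.52 to -0.10, limma adjusted p = 0.139) and -0.26 for Rev3l (-0.50 to -0.02, adjusted p = 0.215), and these 2 of the 7 genes had an unadjusted p under 0.05, as had 20.05% of all genes tested. The difference in choroid plexus markers separates the same groups, and its part was not tested. Poli, Polk, Rad18 and Mad2l2 differed by -0.29, -0.24, -0.21 and -0.07, and Polh by 0.07. The sign for Mad2l2 turned under median-of-ratios scaling and quantile normalization, at 0.036 and 0.029. Since 3 samples stood against 3, a permutation of the labels could not have given a p under 0.1.

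Genes that work next to translesion synthesis were grouped by role. Of 18 genes for PCNA, its ubiquitin enzymes and damage tolerance partners, 7 were called higher in tumors against controls and 0 lower, with a median of 0.22. The largest changes were in Pcna, the clamp itself (2.52, limma adjusted p = 1.60e-08), Rpa2, a subunit of the single-strand binding protein RPA (2.21, adjusted p = 6.53e-08), and Usp1, the protease that removes ubiquitin from PCNA (1.89, adjusted p = 2.72e-08). Neither conjugating enzyme that acts with RAD18 passed the test as higher. Ube2a had a mean of 30.01 ± 1.72 TPM (SD, n = 3) in tumors and 36.8 ± 3.18 (SD, n = 6) in controls, a difference of -0.28 that was lower by the wider rule (adjusted p = 0.0161). Ube2b had 125 ± 18.5 TPM (SD, n = 3) and 116 ± 9.44 (SD, n = 6), a difference of 0.10 (adjusted p = 0.426). Against adjacent cerebellum, 4 of the 18 genes were called higher and 0 lower, led by Pcna (1.74), Rpa3 (1.59) and Rpa2 (1.52).

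Nearly all replicative polymerase subunits rose. Of 12 subunits of Pol α, Pol δ and Pol ε and of primase, 11 were called higher in tumors against controls and 0 lower, with a median of 1.77. The exception was Pold4, the smallest subunit of Pol δ, singled out after its values were seen, with a log2 fold change of -0.33 (limma adjusted p = 0.0259), lower by the wider rule. Pole, the catalytic subunit of Pol ε, led with 3.86 (limma adjusted p = 3.97e-08), followed by its partner Pole2 with 3.003 (adjusted p = 1.09e-07) and Pola2 of the Pol α complex with 2.36 (adjusted p = 5.16e-08). Pold2 and Pold3, which are subunits of both Pol δ and Pol ζ, were higher by 1.63 (adjusted p = 1.03e-07) and 1.15 (adjusted p = 2.18e-06). Thus 3 of the 4 subunits of Pol ζ, Mad2l2, Pold2 and Pold3, were called higher, and Rev3l was the exception. Against adjacent cerebellum 7 of the 12 were called higher, led by Pole2 (2.04), Prim1 (1.57) and Pola2 (1.34). Pold4 was again lower by the wider rule, at -0.56 (adjusted p = 0.0274). Pold2 was higher by 1.12 (adjusted p = 0.00386), and Pold3, at 0.76 (adjusted p = 0.0188), passed only the wider rule.

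A further 7 specialised polymerases, other than the translesion genes described here, gave no call. In tumors against controls 6 were tested, with a median of 0.20. By the wider rule, Polq, the polymerase of end joining by microhomology, was higher by 0.73 (limma adjusted p = 0.00476), Primpol was higher by 0.43 (adjusted p = 0.0296), and Polb, the base excision repair polymerase, was lower by 0.44 (log2 fold change -0.44, adjusted p = 0.0149). Against adjacent cerebellum, 7 were tested and 0 passed either rule. In adjacent against control cerebellum and between the control genotypes, no gene of the 3 lists was called. By the wider rule, 2 damage tolerance genes and 5 replicative subunits were higher in adjacent than in control cerebellum.

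**Figure D5:**
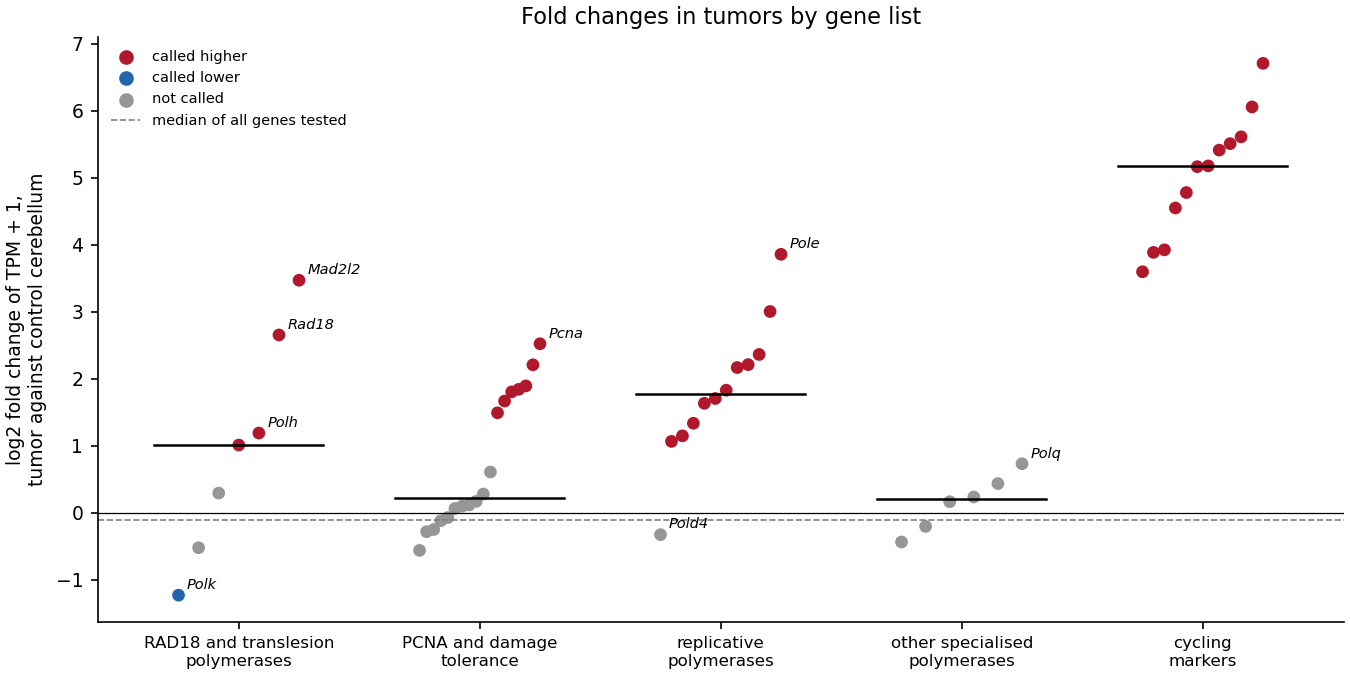
Log2 fold changes of TPM + 1 in tumors against control cerebella for 5 gene lists, 1 point per gene, with the list median as a bar and the median of all genes tested (-0.11) as a dashed line. The translesion genes spread from -1.23 to 3.47, whereas 11 of 12 replicative subunits and 12 of 12 cycling markers are called higher.

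Position in the genome was compared with the fold changes, since 3 of the genes begin beside a neighbour whose sequence is shown above. These neighbours were chosen after their values were seen. Draxin, which encodes a secreted axon guidance protein and has the start 221 bases from that of Mad2l2 used above, had 274, 330.4 and 325 TPM in the tumors and 134, 105 and 8.08 TPM in the adjacent cerebella of GB344, GB359 and GB370. The controls were between 0.263 and 0.477 TPM, except for GB512 with 4.90 TPM. Draxin had the same order among the adjacent samples and the same highest control as Mad2l2. It was called higher in tumors against controls, with a log2 fold change of 7.48 (limma adjusted p = 1.56e-07). In the GENCODE annotation, the spans of Mad2l2 and Draxin overlap by 315 bases, on opposite strands, and share no exonic base. Exons of the knownGene set, on which the authors quantified transcripts, were not compared.

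Col4a3bp (Cert1), which encodes the ceramide transfer protein and starts 155 bases from Polk, had 10.1, 13.0 and 11.9 TPM in the tumors and 38.5, 39.8 and 42.7 TPM in the adjacent cerebella. The controls ran from 46.9 to 55.7 TPM. Like Polk, it was below every cerebellum in every tumor, and it was called lower with a log2 fold change of -2.05 (limma adjusted p = 3.66e-08). Xpo5, the microRNA export gene that starts 169 bases from Polh, had 84.4, 79.3 and 86.6 TPM in the tumors and 42.0 to 52.3 TPM in the controls. It was higher by 0.76 (adjusted p = 1.44e-05), which does not reach the fold limit. Among 755 head-to-head pairs in which both genes were tested and the starts lay at most 500 bases apart, 7.42% had both genes called in the same direction and 1.99% in opposite directions. The pairs of Mad2l2 and Polk were among the former. Both shares are over all pairs, including those with neither gene called. They therefore do not give the rate for pairs in which 1 gene is already called, and no such rate was computed.

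Polk also lies on the chromosome with the lowest median. The median log2 fold change in tumors against controls was -0.38 over 619 genes of chromosome 13, the lowest of 20 chromosomes, and -0.41 over the 35 genes that start within 2.5 Mb of Polk. The chromosomes of the other 6 genes had medians between -0.15 (chromosome 1) and 0.08 (chromosome 6). The fold change of Polk, -1.23, was further from 0 than either median. By whole-genome sequencing, the authors found copy number loss of the chromosome arm carrying the gene Ptch1 in every mouse tumor they sequenced. Polk lies on the same chromosome as Ptch1. The sequenced tumors were not matched to the RNA samples here. DNA copy number was not analysed here, and its part in the level of Polk was not tested.

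The genes whose levels were most like those of each translesion gene were listed as a description, from Pearson's r of log2(TPM + 1) over the 12 samples among 16498 genes. The points share their tissue groups, so any gene that separates tumor from cerebellum scores high. Mad2l2 was most like Chaf1a, a histone chaperone subunit of replicating cells (r = 0.998), followed by Hn1 and Mtfr2 (both 0.997). Rad18 was most like Smarcad1, a chromatin remodeler (0.997), Slc22a29 (0.997) and Bcl2l13 (0.996). Polh was most like Mogs (0.986), Tmem39b (0.985) and Nol9 (0.978), and Poli was most like Cacna2d1 (0.984), Mettl2 (0.983) and Ganab (0.979). Polk was most like Plag1 (0.986), Mrs2 (0.983) and Zfp58 (0.982). Rev3l was most like Yod1 (0.978), Ltn1 (0.976) and Ago3 (0.961), and Rev1 was most like Srsf11 (0.963), Heatr6 (0.955) and Tbpl1 (0.954). Among the 7 genes themselves, Mad2l2 and Rad18 were the most alike pair (r = 0.970), and Rev1 had r between -0.33 and 0.75 with the others.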

How the data were processed

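Poly(A)-selected RNA was sequenced with 75 bp reads. According to the methods, the authors quantified transcripts with Salmon 0.8.1 on the mm10 knownGene set and summed them to genes. The deposited values are TPM, which sum to between 999793 and 999876 per sample. Read depth is unknown, so no counting interval is given, and p-values measure the spread between mice.

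TPM were transformed to log2(TPM + 1), filtered at 1 TPM in 3 samples and fitted with limma 3.58.1 (eBayes with trend, R 4.3.3), each fit using only the groups compared. The fits were tested on simulated data. Tumor and adjacent samples came from the same mice, and their deviations from the group means correlated at r = 0.249, 0.176 and 0.152 within mice. The main fit of tumor against adjacent cerebellum did not use this pairing. The fit with the mouse as a block was an alternative. Other steps used Python 3.11.15, numpy 2.4.6, pandas 2.3.3 and matplotlib 3.10.9. RefSeq positions matched 24045 of 24091 genes. Every translesion gene was named in every comparison, and from 3 related lists the 3 largest called changes plus Pcna, Ube2a, Ube2b, Pold2 and Pold3. Genes and lists were chosen with earlier results of these data known. Alternatives changed the pseudocount, filter, scaling, trend, controls, samples or block.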

Additional observations from a re-analysis of the deposited data

How the results depend on the processing

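In tumors against controls, 5 of the 7 genes were called, and 4 to 5 when a sample was left out. In tumors against adjacent cerebellum, 3 were called, 0 with no filter on low values, 0 with the replicate block (the paired fit), and 0 to 2 when a sample was left out. Over all genes, this comparison had 755 called higher and 2852 lower in the main fit. The counts were 465 and 2663 with no filter, and 701 and 2841 with the block. In adjacent against control cerebellum, 0 were called, 2 when the fold limit was dropped and the adjusted p limit raised to 0.05, and 0 to 2 when a sample was left out. Between control genotypes, 0 were called under every alternative. The causes were not tested. Scaling moved the median change over all genes from -0.11 to 0.06 by quantile normalization in tumors against controls, and from -0.14 to 0.05 by median-of-ratios scaling and 0.14 by quantile normalization in tumors against adjacent cerebellum. Signs turned for differences that had passed neither rule. These were Rev1 (0.18 by median-of-ratios scaling, 0.20 by quantile normalization, -0.074 to 0.019 with a sample left out) and Rev3l (0.035 by quantile normalization) in tumors against adjacent cerebellum, Polh in adjacent against control cerebellum (-0.025 to 0.54 with a sample left out), and between control genotypes Mad2l2 (0.036 by median-of-ratios scaling, 0.029 by quantile normalization, -0.31 to 0.060 with a sample left out) and Polh (-0.036 to 0.21 with a sample left out). With a minimum of 5 TPM, Rad18 was not tested between control genotypes. TPM does not show depth, so the precision of low values such as those of Rad18 in controls is unknown.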
